A study of Homo sapiens with 6 samples.

Results

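The RNA interference machinery is represented here by 10 genes: the nuclease genes DROSHA and DICER1, the export receptor gene XPO5, the argonaute genes AGO1, AGO2, AGO3 and AGO4, and the silencing scaffold genes TNRC6A, TNRC6B and TNRC6C. The members are those of a fixed list of symbols. Their probe sets are the ones that the platform annotation assigns to exactly 1 of these symbols, which gave 40 of the 49395 probe sets in the table. For each gene the mean of its probe sets was tested among 18132 genes. Expression was measured on 6 microarrays of TPC-1, an established line from a human papillary thyroid carcinoma. The group called control shRNA holds 3 arrays of cells given a lentivirus that expresses a control short hairpin RNA. The group called SHCBP1 shRNA holds 3 arrays of cells given a lentivirus that expresses a hairpin against SHCBP1, the gene of a protein that binds the adaptor SHC1. Both groups therefore carry a hairpin, and cells without one were not analysed here. The labels do not say how many hairpin sequences were used, and a rescue was not analysed here. The extraction text of the labels names DLD1, a colorectal carcinoma line, in place of TPC-1. The sources speak of independent samples and not of separate cultures, so p-values measure the spread between these arrays, which may be technical.

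In the canonical pathway DROSHA trims the primary microRNA transcript in the nucleus, XPO5 carries the resulting hairpin to the cytoplasm, and DICER1 cuts it to a short duplex. Short hairpin RNAs made from a vector are exported and cut by the same XPO5 and DICER1. An argonaute protein keeps 1 strand as a guide, and AGO2 is the human argonaute best known for slicing a matched target. The TNRC6 proteins, also known as GW182 proteins, bind argonautes and recruit the enzymes that shorten the poly(A) tail. Inherited loss of DICER1 function is known for benign and malignant thyroid nodules.

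Relative to the rest of the array, the genes of the machinery did not move together. TNRC6B and DICER1 were lower under the SHCBP1 hairpin, 1.59-fold and 1.32-fold. AGO3 was 1.43-fold higher, AGO4 1.24-fold, TNRC6A 1.15-fold and TNRC6C 1.09-fold. DROSHA, XPO5, AGO1 and AGO2 did not pass the test. Calls are from limma's moderated test with Benjamini-Hochberg adjustment over all genes, at an adjusted p under 0.05. Of the 10 members, 4 (40%) were called higher and 2 (20%) lower. Over all genes tested, 22% were called higher and 19% lower, 41% in all. The median change of the members was 0.01 on the log2 scale, and that of all genes was 0.02. The 3 values of one group lay wholly above those of the other in 7 members, against 50% of all genes. With such a background a call alone sets no member apart, and the sizes and the separate probe sets are given below. After scaling to the poly-A spike-in RNAs, also described below, 0 members were called higher and 8 lower. On that scale 2.43% of all genes were called higher and 89.7% lower.

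**Figure D1:**
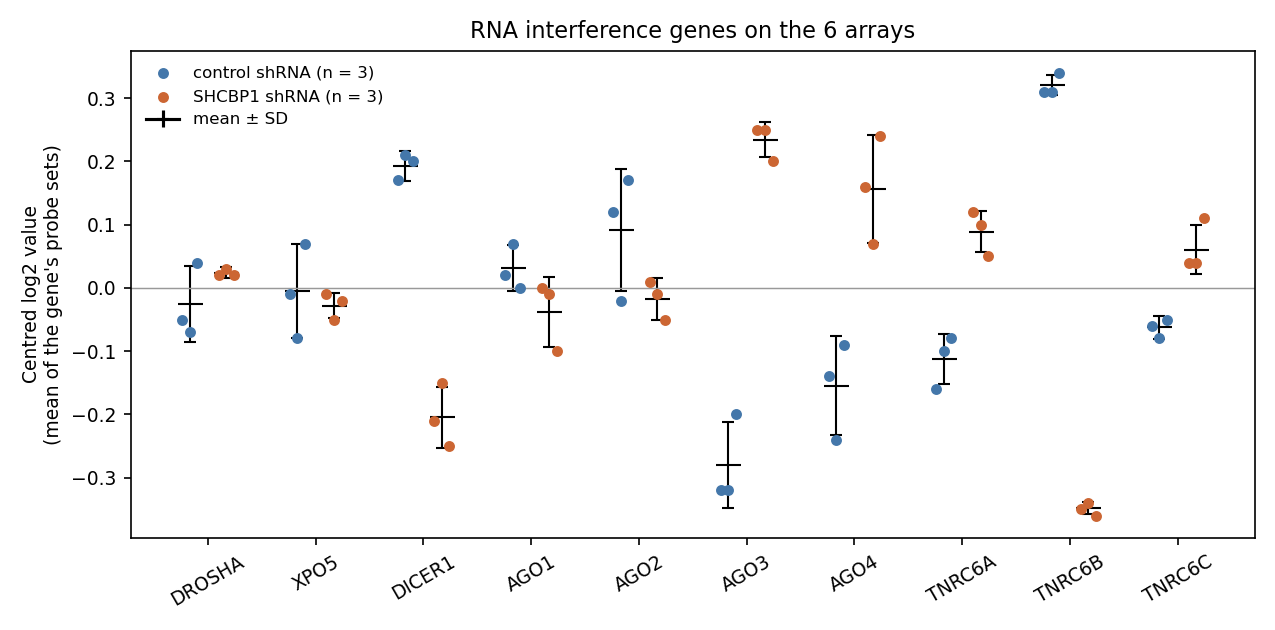
Centred log2 value of each of the 10 genes on each array (points, mean of the gene's probe sets), with the mean ± SD of each group of 3 arrays (black). TNRC6B and DICER1 lie lower and AGO3, AGO4, TNRC6A and TNRC6C higher under the SHCBP1 hairpin, with no overlap of the groups in these 6 genes.

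The deposited values are centred so that every probe set has a median of 0 over the 6 arrays. They show differences between arrays and hold no expression level, so members cannot be ranked by abundance and the presence of thyroid or colorectal markers could not be checked. Of 8 thyroid markers tested, 1 rose, FOXE1 by 0.24 ± 0.05 (SE) on the log2 scale, and 0 fell (limma, where 0 of the 8 fell also at an unadjusted p under 0.05). Of 9 colorectal markers 2 rose, LGR5 by 0.58 and CDX2 by 0.12, and KRT20 fell by 1.08. Called in either direction were 12.5% of the thyroid and 33.3% of the colorectal markers, against 41% of all genes. SHCBP1, the targeted gene, was 2.91-fold lower under the SHCBP1 hairpin (log2 change -1.54 ± 0.06, SE, n = 3 per group). The 24 probe sets of the poly-A spike-in RNAs, which are added in fixed amounts before labelling, were higher by 0.43 ± 0.04 log2 (SE) in the same arrays. For 28S ribosomal RNA, the probe set at the 5′ end read 2.80 ± 0.03 higher (SE, log2). The 3′ minus 5′ signal, a sign of RNA quality, differed by -0.08 ± 0.02 (SE) for ACTB and by -0.01 ± 0.02 (SE) for GAPDH. Scaling to the spike-in RNAs lowers every gene alike, and on that scale 2.43% of all genes were higher and 89.7% lower. A rise of less than 0.43 turns below 0 on that scale. Each change given here compares a gene with the rest of the array, and the part of these control differences in the results was not tested. Whether less of a transcript reflects fewer cells that express it or less RNA per cell cannot be told apart in such bulk samples.

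Among the genes that make, export and cut the hairpin, the mean of DICER1 fell and the means of DROSHA and XPO5 did not pass. The centred log2 values of DICER1, which encodes the cytoplasmic nuclease, were 0.17, 0.21 and 0.20 under the control hairpin and -0.21, -0.15 and -0.25 under the SHCBP1 hairpin. All 3 control arrays were higher than all 3 SHCBP1 shRNA arrays. The difference was -0.40 ± 0.04 (SE, 95% confidence interval -0.49 to -0.31, limma adjusted p = 0.000106), larger in size than that of 87% of all genes. All 4 of its probe sets fell, each past the threshold, where 18.1% of all non-control probe sets were called lower. Probe set 11755211_a_at fell by 0.64, and the 3 whose names end in _s_at fell by 0.26 to 0.42. That suffix and _a_at are both Affymetrix's marks for probes shared between transcripts. Which transcripts these probe sets report was not tested. Probe set 11755211_a_at fell further than the mean of the other 3, by 0.32 ± 0.07 (SE, limma adjusted p = 0.0189), and without the _s_at probe sets the value for the gene is -0.64.

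DROSHA, the nuclear nuclease, had centred values of -0.05, -0.07 and 0.04 under the control hairpin and 0.02, 0.03 and 0.02 under the SHCBP1 hairpin. The groups overlap. The difference was 0.05 ± 0.04 (SE, 95% confidence interval -0.04 to 0.14, limma adjusted p = 0.381), so a rise beyond 0.14 lies outside the interval. None of its 5 probe sets passed limma's adjusted threshold, with changes from -0.01 to 0.14. At an unadjusted p under 0.05 one did, 11749636_a_at (change 0.14, limma adjusted p = 0.0829). Leaving out 1 array at a time gave DROSHA changes from 0.0294 without control replicate 2 to 0.0844 without control replicate 3, none called. With spike-in scaling the change of DROSHA turned to -0.38 (limma adjusted p = 5.43e-05).

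XPO5, the export receptor, gave a mean that hides opposite probe sets. The gene values were -0.01, -0.08 and 0.07 under the control hairpin and -0.01, -0.05 and -0.02 under the SHCBP1 hairpin, a difference of -0.02 ± 0.04 (SE, limma adjusted p = 0.739). Probe set 11729164_a_at read -0.13, -0.20 and -0.02 under the control hairpin and 0.02, 0.15 and 0.10 under the SHCBP1 hairpin. Probe set 11729165_a_at read 0.11, 0.04 and 0.16 under the control hairpin and -0.04, -0.25 and -0.14 under the SHCBP1 hairpin. The groups were separated in both probe sets, in opposite directions. The first was higher by 0.20 ± 0.06 (SE, limma adjusted p = 0.0349) and the second was lower, with a log2 change of -0.25 ± 0.06 (SE, limma adjusted p = 0.0167). The difference between them was 0.45 ± 0.09 (SE, limma adjusted p = 0.0124). Of 4739 genes with 2 probe sets, 73 (1.54%) had calls in both directions. Which of the probe sets reports the transcript that codes for the receptor was not tested, and the gene is given here without a direction: taking only the probe set with the larger spread makes it -0.25 (limma adjusted p = 0.0189), spike-in scaling makes it -0.46 (limma adjusted p = 2.14e-05), and leaving out control replicate 3 turns the mean to 0.02.

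To show the start regions of the members that rose and fell furthest, the 250 bases before the annotated start of AGO3 and TNRC6B are printed from the RefSeq promoter table of GRCh38.p14, on the coding strand, 5′ to 3′. AGO3 is read at chr1:35930855-35931104 (plus strand) and TNRC6B at chr22:40044584-40044833 (plus strand), and capitals mark matches to the motifs named below.
AGO3: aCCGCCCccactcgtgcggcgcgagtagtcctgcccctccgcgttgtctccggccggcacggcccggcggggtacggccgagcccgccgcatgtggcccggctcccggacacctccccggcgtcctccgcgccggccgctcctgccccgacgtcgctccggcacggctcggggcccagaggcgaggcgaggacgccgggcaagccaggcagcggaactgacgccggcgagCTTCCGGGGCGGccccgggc
TNRC6B: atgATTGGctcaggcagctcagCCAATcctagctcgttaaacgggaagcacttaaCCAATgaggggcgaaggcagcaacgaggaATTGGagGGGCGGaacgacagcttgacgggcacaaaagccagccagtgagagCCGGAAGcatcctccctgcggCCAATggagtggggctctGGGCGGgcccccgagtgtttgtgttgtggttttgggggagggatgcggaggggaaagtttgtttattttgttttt
The AGO3 stretch is 80% G or C and that of TNRC6B 56.4%. Motifs were searched on both strands of windows that run from 250 bases before to 50 after each start: CACGTG (E-box), GCGCATGC (NRF1), CCGGAAG (ETS), TTTCCCGC and TTTGGCGC (E2F), GGGCGG (SP1), AAGATGGCG (YY1), TGACGTCA (CRE), CCAAT (the NF-Y box) and TATAAA (the TBP box). TNRC6B held 5 matches to CCAAT, read as ATTGG on the other strand, together with 1 ETS and 2 SP1 matches, none of which overlap. Of 35116 such windows, 34.6% hold CCAAT, 3.26% hold it 3 times or more and 0.359% hold it 5 times or more. The cut of 5 is the count in TNRC6B itself. AGO3 held 1 ETS and 2 SP1 matches, of which the ETS match and 1 SP1 match overlap, and no CCAAT match. The ETS motif is found in 10.3% and the SP1 motif in 45% of all windows. CCAAT matches were not limited to members that fell: the DROSHA window held 3, those of AGO1 and TNRC6A 1 each, and 1 window of TNRC6C held 2. DICER1 had 1 match in each of 2 of its 5 windows. The table has a window for 9 of the 10 members, several of them for DICER1 and TNRC6C. A match is a run of letters and was not tested for binding.

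Among the argonautes, AGO3 and AGO4 rose and AGO1 and AGO2 did not pass. AGO3 had centred values of -0.32, -0.32 and -0.20 under the control hairpin and 0.25, 0.25 and 0.20 under the SHCBP1 hairpin. The groups are far apart relative to the spread within them. The difference was 0.51 ± 0.04 (SE, 95% confidence interval 0.41 to 0.62, limma adjusted p = 5.66e-05), and 92.3% of all genes had a smaller change. Probe sets 11740857_x_at, 11739978_s_at and 11756925_a_at rose by 0.63, 0.71 and 0.80. The remaining probe set, 11760530_at, read -0.14, 0.07 and 0.08 under the control hairpin and -0.04, 0.04 and -0.21 under the SHCBP1 hairpin, so its groups overlap. It had a change of -0.08 ± 0.09 (SE, limma adjusted p = 0.542), below the mean of the other probe sets by 0.79 ± 0.09 (SE, limma adjusted p = 0.00184). The mean for the gene therefore lies between a rise of 0.63 or more in 3 probe sets and no call in 1. Without the _s_at and _x_at probe sets the value for AGO3 is 0.36 (limma adjusted p = 0.000826). With spike-in scaling AGO3 had a change of 0.08 (limma adjusted p = 0.172) and was no longer called.

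AGO4 had centred values of -0.14, -0.24 and -0.09 under the control hairpin and 0.16, 0.07 and 0.24 under the SHCBP1 hairpin. All 3 SHCBP1 shRNA arrays were above all 3 control arrays, with more spread within groups than for AGO3. The difference was 0.31 ± 0.06 (SE, 95% confidence interval 0.18 to 0.45, limma adjusted p = 0.00339), and it turned to -0.12 with spike-in scaling. Its 4 probe sets had changes from 0.13 to 0.50, all above 0. Of these, 11758237_s_at rose by 0.21 and 11759312_at by 0.50. Probe sets 11739597_at and 11759313_at, with changes of 0.13 and 0.41, did not pass. None of the 4 passed limma's adjusted threshold for a difference from the others, and 1 did at an unadjusted p under 0.05. Taking only the probe set with the largest spread left AGO4 just outside the threshold (0.41, limma adjusted p = 0.053).

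AGO1 and AGO2 have 1 probe set each. AGO1 read 0.02, 0.07 and 0.00 under the control hairpin and 0.00, -0.01 and -0.10 under the SHCBP1 hairpin. Its groups touch without overlapping, at values that round to 0. The difference was -0.07 ± 0.04 (SE, 95% confidence interval -0.17 to 0.03, limma adjusted p = 0.229), it was -0.0386 without SHCBP1 shRNA replicate 3, and with spike-in scaling AGO1 was called lower (-0.50, limma adjusted p = 4.63e-05). AGO2, the slicing argonaute, read 0.12, -0.02 and 0.17 under the control hairpin and 0.01, -0.01 and -0.05 under the SHCBP1 hairpin. Control replicate 2 lies among the SHCBP1 shRNA arrays. The difference of AGO2 was -0.11 ± 0.05 (SE, 95% confidence interval -0.23 to 0.01, limma adjusted p = 0.149), and without control replicate 2 it was -0.16 (limma adjusted p = 0.0224). Without control replicate 3 the AGO2 difference was -0.0687 (limma adjusted p = 0.375), and with spike-in scaling AGO2 was called lower (-0.54, limma adjusted p = 8.22e-06). A further probe set, 11720866_a_at, is annotated to both AGO1 and AGO3 and is no member by the rule. It fell by 0.15 ± 0.04 (SE, limma adjusted p = 0.0333), opposite in sign to the called probe sets of AGO3.

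AGO4, AGO1 and AGO3 lie side by side on chromosome 1, in that order, with no other protein-coding gene between them in the RefSeq table of assembly GRCh38.p14. The gene in the middle, AGO1, did not share the rise of its neighbours. Against the mean of the other 3 argonautes, AGO3 was higher by 0.47 ± 0.03 (SE) and AGO4 by 0.20 ± 0.07 (SE) under the SHCBP1 hairpin. On the same measure AGO1 had a change of -0.31 ± 0.07 (SE) and AGO2 of -0.36 ± 0.04 (SE). The groups did not overlap in any of these 4 contrasts. Each gave p = 0.10 in a two-sided exact permutation test over the 6 arrays, the smallest p that 3 arrays against 3 allow (0.10 after Benjamini-Hochberg adjustment over the 7 contrasts of argonautes and TNRC6 genes). A threshold of 0.05 could not be reached. By construction the 4 contrasts cancel out within each array, so they are not separate results. Those of AGO1 and AGO2 hold the rise of AGO3 and AGO4 in their reference. AGO1 and AGO2 themselves had changes of -0.07 and -0.11 and were not called. These contrasts are taken within an array, so scaling to the spike-in RNAs leaves them as they are.

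Relative to the rest of the array, the TNRC6 scaffolds went in opposite directions. TNRC6B showed the largest change of any member, with centred values of 0.31, 0.31 and 0.34 under the control hairpin and -0.35, -0.34 and -0.36 under the SHCBP1 hairpin. The arrays within a group nearly coincide. The difference was -0.67 ± 0.03 (SE, 95% confidence interval -0.74 to -0.60, limma adjusted p = 3.46e-06), larger in size than that of 95.8% of all genes. All 10 of its probe sets were lower on average, 9 of them past the threshold, and in all 10 the groups did not overlap. Over all non-control probe sets 18.1% were called lower. The groups did not overlap in 50% of all genes, a share for gene means, and that for single probe sets is not given here. The 10 probe sets report the same gene on the same arrays and are not separate results. The size of their changes ran from -0.15 to -1.05. Probe sets 11736498_a_at and 11740670_a_at fell by 1.05 and 1.03, past a 2-fold change, as did 11736495_a_at, by 1.03. The smallest changes were those of 11750564_a_at, which fell by 0.17 ± 0.06 (SE, limma adjusted p = 0.0497), and 11752790_a_at, with a change of -0.15 ± 0.08 (SE, limma adjusted p = 0.175). In 11750564_a_at control replicates read 0.09, 0.03 and 0.02 and the SHCBP1 shRNA arrays -0.02, -0.19 and -0.14. In 11736498_a_at control replicates read 0.49, 0.47 and 0.46 and the SHCBP1 shRNA arrays -0.68, -0.46 and -0.57. The gap between groups is thus several times wider in the latter. In all, 7 of the 10 differed from the mean of the other TNRC6B probe sets, 4 falling further and 3 less. Taking only the probe set with the largest spread makes the value for the gene -1.03.

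TNRC6A had centred values of -0.16, -0.10 and -0.08 under the control hairpin and 0.12, 0.10 and 0.05 under the SHCBP1 hairpin, with no overlap. The difference was 0.20 ± 0.04 (SE, 95% confidence interval 0.11 to 0.29, limma adjusted p = 0.00324), and it turned to -0.23 with spike-in scaling. One probe set carries most of it. Probe set 11717818_at read -0.52, -0.39 and -0.40 under the control hairpin and 0.39, 0.43 and 0.41 under the SHCBP1 hairpin. It rose by 0.84 ± 0.05 (SE, limma adjusted p = 1.74e-05), above the mean of the other 5 by 0.77 ± 0.05 (SE, limma adjusted p = 0.000228). Of those 5, 11748942_s_at rose by 0.21 and the others, from -0.04 to 0.13, did not pass. The median of the probe sets in place of the mean gives 0.11 for the gene (limma adjusted p = 0.0353).

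TNRC6C had centred values of -0.06, -0.08 and -0.05 under the control hairpin and 0.04, 0.04 and 0.11 under the SHCBP1 hairpin. The groups are separated, by a small margin. The difference was 0.12 ± 0.04 (SE, 95% confidence interval 0.04 to 0.20, limma adjusted p = 0.0251), the smallest change called among the members, and it turned to -0.31 with spike-in scaling. The call was lost without control replicate 1 (limma adjusted p = 0.0668), control replicate 2 (0.0706) or SHCBP1 shRNA replicate 3 (0.0864), and with the median of the probe sets (0.0539). Of its 3 probe sets 11734077_a_at rose by 0.19, and the others, with changes of 0.02 and 0.16, did not pass. Against the mean of its paralogs TNRC6B had a change of -0.83 ± 0.01 (SE), TNRC6A of 0.48 ± 0.04 (SE) and TNRC6C of 0.36 ± 0.04 (SE). Each of these 3 contrasts gave p = 0.10 in the two-sided exact permutation test, again the smallest possible. These contrasts too cancel out within each array by construction and are not separate results. Those of TNRC6A and TNRC6C hold the fall of TNRC6B in their reference. The changes of TNRC6A and TNRC6C themselves were 0.20 and 0.12.

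**Figure D2:**
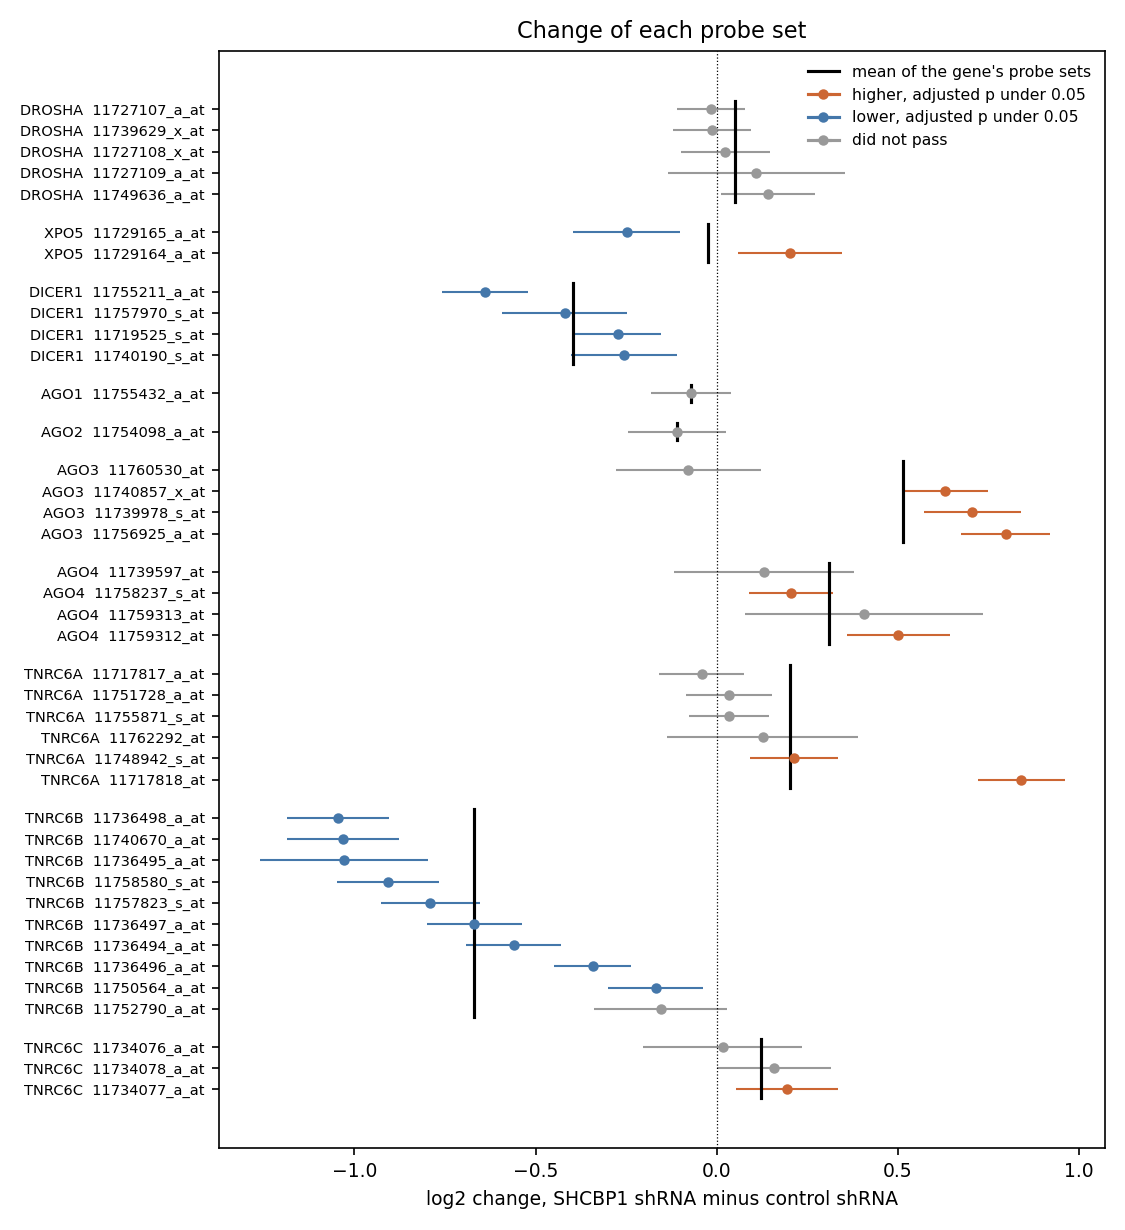
The log2 change of each of the 40 probe sets (points, with 95% confidence intervals from limma, 3 arrays per group), grouped by gene and coloured by call; the black bar is the change of the gene's mean. TNRC6B spans -1.05 to -0.15, 1 probe set of TNRC6A and 1 of AGO3 stand apart from the rest of their gene, and those of XPO5 were called in opposite directions.

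Over the 40 probe sets, 9 (22.5%) were called higher and 14 (35%) lower, against 19.9% and 18.1% of all probe sets that are not controls. Of the 38 that share their gene with another, 15 (39.5%) differed from the mean of the others by limma's test, against 16.3% of all such probe sets on the array. Genes with many probe sets and large changes weigh most in that count, and those of XPO5 count as 2 although they mirror each other. The 15 belong to 5 genes: 7 to TNRC6B, 3 to AGO3, 2 to TNRC6A, 2 to XPO5 and 1 to DICER1. The spread from the lowest to the highest probe set was 0.89 for TNRC6B, 0.88 for TNRC6A and 0.88 for AGO3, wider than in 96.8%, 96.7% and 96.7% of the 11734 genes with more than 1 probe set. These ranks do not allow for the number of probe sets, and a spread can only widen as probe sets are added. Of these genes 4739 have 2 probe sets, with a median spread of 0.10. For genes with 10 or more probe sets the median spread was 0.45. DROSHA and TNRC6C, with spreads of 0.16 and 0.18, lay close to the median of 0.18 over all genes with more than 1 probe set. The 8 probe sets annotated to RefSeq transcripts had no common place within their genes. They had the largest change in TNRC6B (-1.05 and -1.03) and TNRC6A (0.84), and the smallest in AGO4 (0.13) and TNRC6C (0.02), where they were not called. Those of DICER1 (-0.27), DROSHA (0.11, not called) and AGO3 (0.63) lay between. Whether the probe sets of a gene report different transcripts, or differ in how they hybridise, was not tested.

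**Figure D3:**
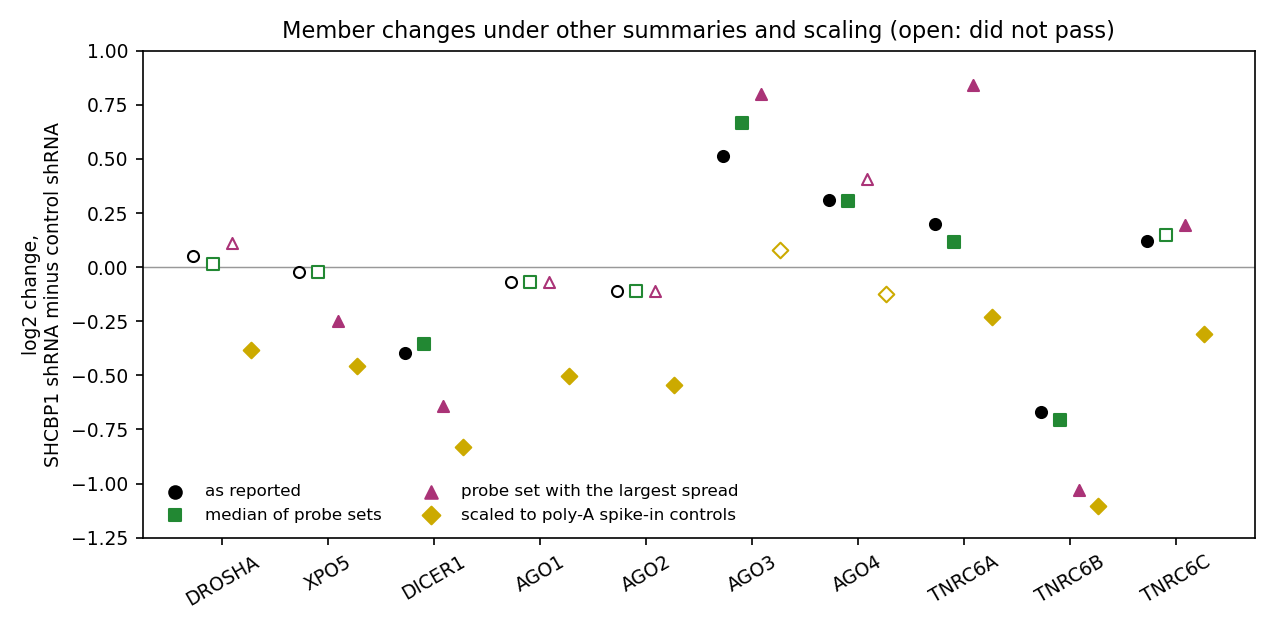
The log2 change of each member as reported (mean of probe sets), with the median of its probe sets, with the probe set of largest spread, and after scaling to the poly-A spike-in RNAs; open symbols did not pass limma's adjusted threshold of 0.05. The falls of TNRC6B and DICER1 keep their direction in all 4 settings, while AGO4, TNRC6A, TNRC6C and DROSHA turn below 0 with spike-in scaling.

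Genes that work with the machinery changed in both directions as well. In 7 lists of such genes 88 of 90 were tested, and 23 (26.1%) were called higher and 34 (38.6%) lower, with a median of -0.01. Over all genes the shares were 22% and 19%, and the difference from them was not tested. With spike-in scaling the counts are 2 higher and 82 lower.

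Of 10 partners of DROSHA and of export, 4 (40%) were called higher and 2 (20%) lower, against 22% and 19% of all genes, with changes from -0.15 to 0.25. DGCR8, which holds the primary transcript for DROSHA, rose by 0.25 ± 0.05 (SE), with values of -0.11, -0.12 and -0.18 under the control hairpin and 0.19, 0.12 and 0.05 under the SHCBP1 hairpin. DGCR8 thus passed the test where DROSHA did not, though a difference between them was not tested. ILF2, a double-stranded RNA-binding partner of the microprocessor, rose by 0.17, and the cap-binding subunit NCBP1 fell by 0.15.

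Of 14 partners of DICER1 and of argonaute loading, 7 (50%) were called higher and 6 (42.9%) lower, against 22% and 19% of all genes, with a median of 0.10. The co-chaperone STIP1 fell by 0.91 ± 0.03 (SE) and DNAJA2, an HSP40 chaperone, by 0.62 ± 0.03 (SE). STIP1 links HSP70 to HSP90 during the loading of client proteins, and argonaute is among the known clients. TSN, which encodes the translin subunit of an RNA-cutting complex that clears the passenger strand, rose by 0.65 ± 0.03 (SE). The arrays of STIP1 read 0.44, 0.44 and 0.46 in the control group and -0.46, -0.44 and -0.49 in the SHCBP1 shRNA group. Those of TSN ran the opposite way, -0.32, -0.34 and -0.33 against 0.32, 0.33 and 0.30.

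In the list of deadenylation and decapping genes, which act downstream of TNRC6 proteins, 5 of 25 (20%) were called higher and 12 (48%) lower, against 22% and 19% of all genes, with a median of -0.12. The deadenylase subunits CNOT6 and CNOT7 fell by 0.61 ± 0.04 and 0.60 ± 0.03 (SE). DCP2, the catalytic subunit that removes the cap, rose by 1.11 ± 0.05 (SE), the largest change in the 7 lists, with values of -0.50, -0.63 and -0.57 under the control hairpin and 0.53, 0.60 and 0.51 under the SHCBP1 hairpin. The fall of these deadenylase genes and the rise of the decapping gene each exceed the spread within groups in these arrays.

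Among argonaute partners and regulators 3 of 14 (21.4%) rose and 5 (35.7%) fell, against 22% and 19% of all genes. CSNK1A1, a kinase that phosphorylates argonaute, fell by 0.47, the nuclease gene SND1 by 0.45 and the helicase gene MOV10 by 0.43. Among genes of microRNA tailing and decay 1 of 11 (9.09%) rose and 5 (45.5%) fell. The largest changes were those of the RNA-binding protein gene HNRNPA1 (fell by 0.54), the exonuclease gene XRN2 (fell by 0.38) and the deadenylase gene PARN (fell by 0.25). Of the 4 PIWI genes, germline relatives of the argonautes, PIWIL2 rose by 0.44 ± 0.05 (SE) and PIWIL4 fell by 0.70 ± 0.10 (SE). Because the values hold no level, they do not show whether these PIWI transcripts were above background.

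Of 10 sensors of double-stranded RNA and genes that interferon induces, 2 (20%) were called higher and 3 (30%) lower, near the shares over all genes. MAVS, the adaptor downstream of the cytoplasmic sensors, fell by 0.50 ± 0.03 (SE), and the endosomal receptor gene TLR3 fell by 0.29 ± 0.06 (SE). RIGI, a cytoplasmic sensor, rose by 0.25 ± 0.04 (SE). The list had a median of -0.04.

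**Figure D4:**
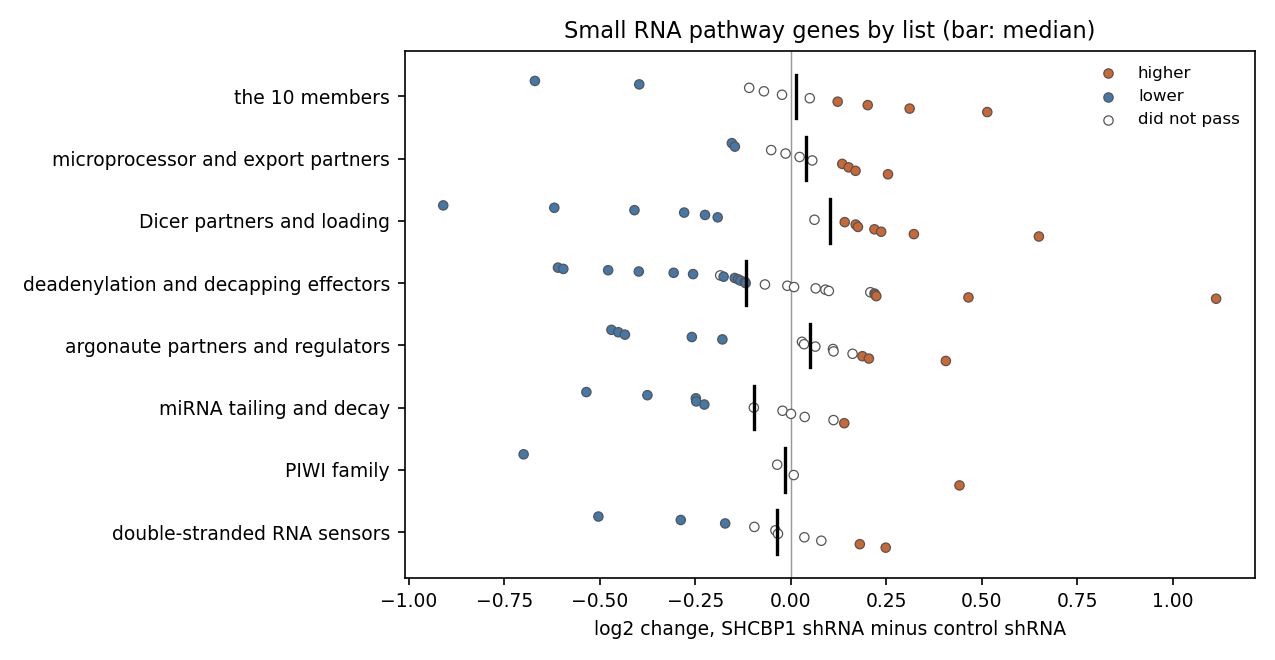
The log2 change of each gene (points) in the 10 members and in 7 lists of genes that work with them, coloured by call, with the median of each list as a bar. Calls fall on both sides of 0 in every list, and DCP2 at 1.11 and STIP1 at -0.91 are the extremes.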

How the data were processed

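The deposited table holds 1 value per probe set and array on a log2 scale, which the authors made with RMA, per the submitters' processing notes. The log base is not stated and was taken from the scale of RMA. Every one of the 49395 rows has a median of 0 over the 6 arrays. No centring step and no version of RMA is given in the sources used here. RMA's quantile step evens the arrays, so a shift of all transcripts one way would be removed.

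Probe sets with 1 symbol in the platform annotation (44988) were averaged per gene, since no level was left to filter on. The 102 Affymetrix controls were left out of the tests, as were, at gene level, 1832 probe sets with several symbols and 2473 unnamed here. Differences are SHCBP1 shRNA minus control shRNA, tested without pairing by limma 3.58.1 (lmFit, eBayes; R 4.3.3). P-values were adjusted by Benjamini-Hochberg over all genes or all non-control probe sets. SE is limma's moderated standard error, except for paralog contrasts and control probe sets (difference of group means). A probe set was also tested, per array, against the mean of the other probe sets of its gene. The precision is limited by the 3 arrays per group. Scripts were tested on simulated data.

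All 10 members matched the RefSeq gene table (GRCh38.p14) by Entrez number. The members and lists were chosen with earlier results of these data known. By the naming rule the text names SHCBP1, every member and, per list, up to 3 genes with the largest change past the threshold.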

Additional observations from a re-analysis of the deposited data

How the results depend on the processing

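Of the alternatives run, scaling to the poly-A spike-in RNAs moved counts of calls by over 1.5 times. It left 0 members called higher and 8 lower, 4 probe sets higher and 34 lower, and 2 pathway genes higher and 82 lower; by limma 0 members were higher also at an unadjusted p under 0.05. It turned AGO4 (-0.12), DROSHA (-0.38), TNRC6A (-0.23) and TNRC6C (-0.31), took AGO3 to 0.08, and by construction shifts every gene by the same amount (median of all genes -0.41). Leaving out 1 array at a time gave XPO5 changes from -0.0589 to 0.0157 (log2), above 0 without control replicate 3. The same omissions gave 3 to 4 members higher and 2 to 3 lower, 7 to 10 probe sets higher and 11 to 14 lower, and 20 to 22 pathway genes higher and 30 to 33 lower. Without _s_at and _x_at probe sets 17 pathway genes were higher and 27 lower. Repeated quantile normalization, median centring of arrays, array weights and robust moderation changed no member's call. The cause of the other losses of a call was not tested. The arrays were not paired by replicate number in the tests. The correlations of same-numbered deviations were 0.02, -0.05 and 0.07, and not every array correlated best with its own number. Such small correlations do not settle whether same-numbered arrays were prepared together. With the replicate block 7092 genes were called in place of 7440, SHCBP1 had a change of -1.54 (limma adjusted p = 8.83e-05), and no member's call changed.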

Other observations

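Genes named as hosts of microRNAs, whose transcripts DROSHA cuts, were looked at after their values were seen, by symbol alone. Of 9 such genes 2 rose, against 22% of all genes, and 0 fell by limma's adjusted test, and 0 fell at an unadjusted p under 0.05. MIR1915HG rose by 0.99 ± 0.07 (SE, limma adjusted p = 2.57e-05) and MIR22HG by 0.32 ± 0.04 (SE, limma adjusted p = 0.000423). The other 7 had changes from -0.04 to 0.10. The arrays report host transcripts and not mature microRNAs.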
